A study of Mus musculus with 6 samples.

Results

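The Hippo pathway genes described here were Yap1 and Wwtr1, the TEAD factors Tead1, Tead2, Tead3 and Tead4, the kinases Lats1 and Lats2, the scaffold Sav1 and the TEAD cofactor Vgll4. These 10 genes were chosen by symbol, without use of their levels, from the 18810 genes of the table. RNA was sequenced from atrioventricular canal regions of embryonic mouse hearts that lacked the transcription factor Scleraxis (Scx), with littermates as controls. There were 3 libraries from Scx-/- (Scx null) hearts and 3 from Scx+/+ (wild type) hearts, all at E15.5 and on the C57BL/6 strain. The dissected regions held the mitral, tricuspid and aortic valves and were not sorted, and the null allele was present in all cells of the Scx-/- embryos. Values are RPKM, read counts scaled by the authors to exon length and library depth.

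In the Hippo pathway, the kinases MST1 and MST2 (genes Stk4 and Stk3), held by the scaffold SAV1, activate the kinases LATS1 and LATS2. LATS kinases phosphorylate the coactivators YAP (Yap1) and TAZ (Wwtr1) and keep them out of the nucleus, where they otherwise bind TEAD factors and switch on genes such as Ctgf and Cyr61. In the heart, YAP and TEAD1 are known for their part in the growth of the embryonic myocardium, and TEAD1 binds regulatory elements of many muscle genes. Much of this regulation acts on the proteins and is not seen in RNA.

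The tissue label was checked against marker genes. The valve mesenchyme gene Postn, the highest of 7 mesenchyme markers by mean, ranged from 161 to 387 RPKM over the 6 libraries. The ventricular muscle gene Myl2, the highest of 8 cardiomyocyte markers, ranged from 5910 to 11634 RPKM, so that muscle RNA was abundant beside valve RNA. The lowest mesenchyme means were 2.10 (Sox9), 2.18 (Twist1) and 1.96 RPKM (Snai2). The lowest cardiomyocyte mean was 43.5 RPKM (Ryr2). Scx itself ranged from 18.6 to 82.9 RPKM in Scx-/- hearts and from 26.0 to 58.3 RPKM in Scx+/+ hearts. The genotypes overlapped, with a log2 difference of 0.07, so a loss of Scx was not seen in this whole-gene value. It therefore does not check the genotype labels, and exon 1 on its own was not analysed here. Depth was 46429969 to 68571003 reads per library. Reads summed over the listed genes came to 59073249 to 71019895, more than that depth in every library, and the reason was not tested. Scx+/+ replicate 2 stood apart, with 69437614 reads in genes against a depth of 46429969 reads, and with 56.9% of its RPKM sum in its 10 highest genes, against 30.7% to 43.9% in the other libraries. The summed level of 8 cardiomyocyte markers was highest in Scx+/+ replicate 2 (27844 RPKM) and Scx-/- replicate 3 (25528 RPKM) and lay between 15707 and 21263 RPKM in the other 4 libraries. Myl2, Myh6, Tnnt2 and Actc1 were each highest in this pair, but not every marker followed the sum. In Scx-/- replicate 3, Myh7, Myl7 and Nppa were below their levels in Scx-/- replicate 1. Ryr2 was highest in Scx+/+ replicates 3 and 1. Of the other marker lists, 2 of 5 epicardial genes (Tcf21, Aldh1a2) were called higher in Scx-/- hearts. So were 2 of 3 melanocyte genes (Mlana, Dct) and 1 of 4 macrophage genes (Cd68), against 2.82% of all genes. The remaining melanocyte gene, Tyr, was not in the table. Mlana was at the fill-in value for low genes in all 3 Scx+/+ libraries, and Cd68 in Scx+/+ replicate 2. Snai2, 1 of 7 mesenchyme markers, and Ryr2, 1 of 8 cardiomyocyte markers, were called lower, against 1.06% of all genes. Of these 7 calls, Mlana kept its call with each library left out, and the others kept it in 1 (Aldh1a2), 2 (Dct, Snai2, Ryr2) or 3 (Tcf21, Cd68) of 6 such fits. Leaving out a Scx+/+ library cannot change the Mlana difference, since all 3 hold the same fill-in value. The Scx-/- values of Mlana rested on only 39, 15 and 14 reads. None of 7 endothelial, 4 smooth muscle or 4 erythroid markers was called. In bulk tissue, fewer cells of a type and less RNA per cell cannot be told apart.

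Tead1 was the only one of the 10 genes whose levels differed between genotypes at an unadjusted p below 0.05, the threshold for a call used here, and it was lower in the Scx-/- hearts at 0.603 of the Scx+/+ level. Across the whole table, limma called 3.89% of the 18810 genes, with 2.82% higher and 1.06% lower in Scx-/- hearts. After Benjamini-Hochberg adjustment limma called 0 genes, the smallest adjusted p being 0.173. For the other 9 genes the 95% interval of the log2 difference included 0. The median log2 difference of the 10 genes was 0.01, with 5 above and 5 below 0, against a median of 0.10 and 63.8% above 0 over all genes. Setting every library's median to 0 took the median of all genes to -0.00, and then 3 of the 10 genes lay above 0. That scaling also changed the 531 higher and 200 lower calls of the whole table to 281 higher and 365 lower.

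**Figure D1:**
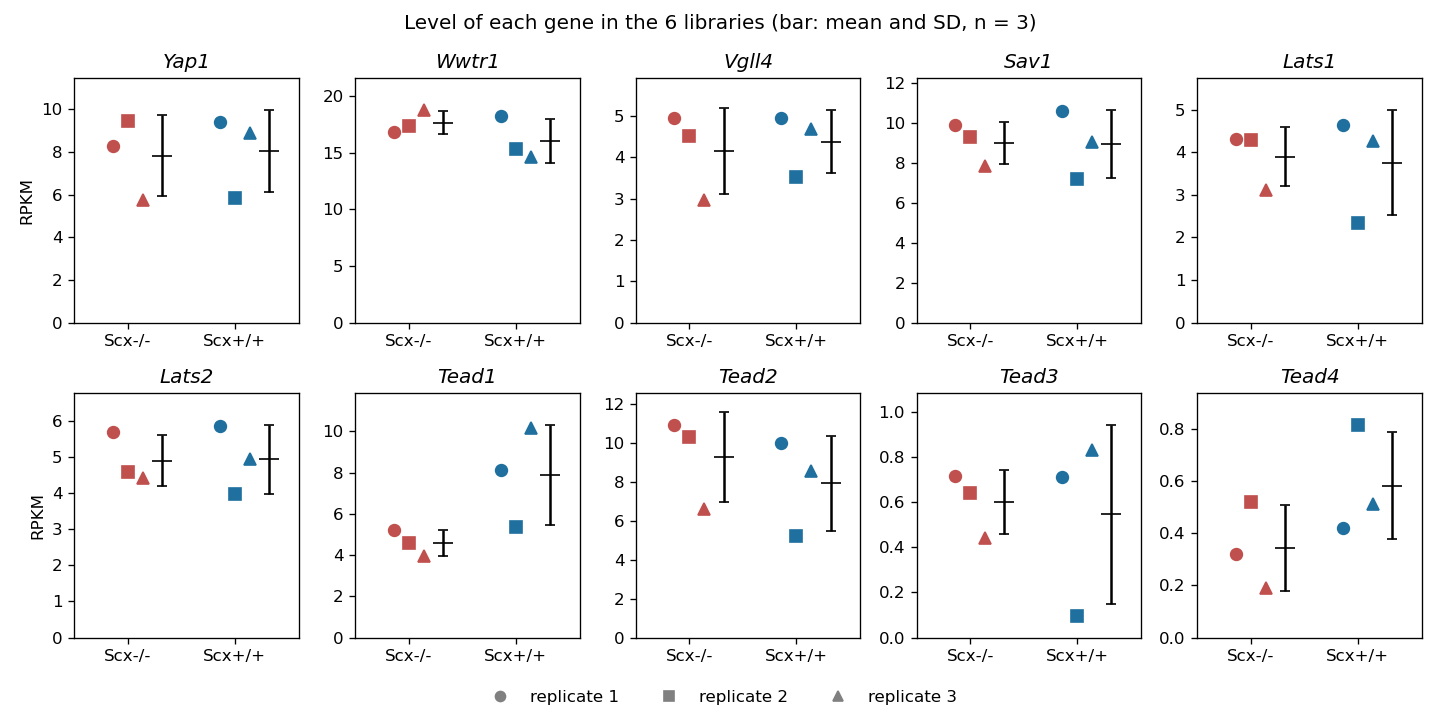
Level in RPKM of the 10 Hippo pathway genes in each of the 3 Scx-/- and 3 Scx+/+ libraries, with the group means marked. The value of Tead3 in Scx+/+ replicate 2 is the fill-in value. Tead1 lies between 3.93 and 5.22 RPKM in the Scx-/- libraries and between 5.34 and 10.2 RPKM in the Scx+/+ libraries, while the groups of the other 9 genes overlap.

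Wwtr1 was the most abundant of the 10 genes, with a mean over the 6 libraries of 16.9 RPKM, and its lowest library (14.6 RPKM) lay above the highest of any other member (10.9 RPKM). Sav1 (8.96 RPKM), Tead2 (8.60 RPKM), Yap1 (7.94 RPKM) and Tead1 (6.23 RPKM) followed, and the ranges of neighbours in this order overlapped. Lats2 (4.91 RPKM), Vgll4 (4.26 RPKM) and Lats1 (3.82 RPKM) also overlapped in range, although Lats2 was above Vgll4 in 6 of 6 libraries. Tead3 (0.573 RPKM) and Tead4 (0.463 RPKM) were the lowest, with no library above 0.832 RPKM, and lay below every value of the other 8 genes. Among all genes of the table, Wwtr1 stood at percentile 80.6 of the mean level, Lats1 at percentile 52.5 and Tead4 at percentile 13.6. The 8 members other than Tead3 and Tead4 varied between their lowest and highest library by 1.28-fold (Wwtr1) to 2.59-fold (Tead1).

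Yap1 (ENSMUSG00000053110, mm9, chromosome 9, 7931999 to 8004596, minus strand) encodes YAP, the coactivator that the LATS kinases inhibit. Its level was 8.27, 9.47 and 5.76 RPKM in Scx-/- replicates 1, 2 and 3 and 9.40, 5.86 and 8.89 RPKM in Scx+/+ replicates 1, 2 and 3. The groups overlapped, with 1 low library in each. The means were 7.83 ± 1.89 and 8.05 ± 1.91 RPKM (SD, n = 3 each). The log2 difference was -0.04 with a standard error of 0.26 and a 95% interval from -0.64 to 0.56 (limma, adjusted p = 0.996).

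Wwtr1 (ENSMUSG00000027803, chromosome 3, 57259571 to 57379832, minus strand) encodes TAZ, the paralog of YAP. It was measured at 16.8, 17.4 and 18.8 RPKM in Scx-/- hearts and at 18.3, 15.3 and 14.6 RPKM in Scx+/+ hearts. The groups overlapped, since Scx+/+ replicate 1 was above 2 of the Scx-/- libraries. The log2 difference was 0.14 with a standard error of 0.17 and a 95% interval from -0.24 to 0.52 (limma, adjusted p = 0.967), the narrowest interval of the 10 genes. Yap1 made up 33.0%, 35.3% and 23.5% of the summed Yap1 and Wwtr1 RPKM in Scx-/- libraries and 33.9%, 27.7% and 37.8% in Scx+/+ libraries. Per exon length, Wwtr1 was above Yap1 in all 6 libraries, and the shares overlapped between genotypes.

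Tead1 (ENSMUSG00000055320, chromosome 7, 119822832 to 120050319, plus strand) encodes a DNA-binding partner of YAP and TAZ. It was listed at 5.22, 4.60 and 3.93 RPKM in Scx-/- replicates 1 to 3 and at 8.12, 5.34 and 10.2 RPKM in Scx+/+ replicates 1 to 3. Every Scx-/- library lay below every Scx+/+ library, with a small gap between Scx-/- replicate 1 and Scx+/+ replicate 2. Over the whole table, 9.5% of genes had genotypes that did not overlap, and 2.31% did so with Scx-/- lower. The means were 4.59 ± 0.646 and 7.88 ± 2.42 RPKM (SD, n = 3 each), and the values rested on 2639 to 7831 reads per library. The log2 difference was -0.73 with a standard error of 0.27 and a 95% interval from -1.34 to -0.12. In limma the unadjusted p was 0.0238 and the adjusted p 0.967. The per-gene test without moderation gave an unadjusted p of 0.0852 on RPKM and 0.0671 on log2, so it did not call Tead1. With 3 libraries against 3, an exact two-sided permutation test cannot give a p below 0.1.

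The Tead1 call was lost when any of 4 libraries was left out. When the libraries were left out singly, the log2 difference stayed between -0.98 and -0.52, and the call was kept in 2 of 6 fits. It was lost without Scx-/- replicate 2 (log2 difference -0.74), Scx-/- replicate 3 (-0.63), Scx+/+ replicate 1 (-0.68) or Scx+/+ replicate 3 (-0.52). Without Scx+/+ replicate 2, which stood apart in read use, it was -0.98 (limma adjusted p = 0.598). Leaving out both libraries with the highest summed cardiomyocyte markers, an alternative chosen after seeing the data, gave -0.88 (limma adjusted p = 0.578).

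The table held 11 rows for the 10 symbols, because a second entry (ENSMUSG00000055593, a processed transcript on chromosome 7, 120046474 to 120050321, plus strand) also carries the symbol Tead1. Of its 3848 bases, 3846 lie inside the last part of the Tead1 exons and make up 34.2% of them, so the entries are not independent. That reads on the shared bases were counted for both entries was taken from the coordinates and not checked, and the subtraction below assumes it. The second entry was listed at 6.69, 6.85 and 5.32 RPKM in Scx-/- hearts and 10.6, 7.68 and 13.6 RPKM in Scx+/+ hearts, without overlap. Its log2 difference was -0.72 (limma, unadjusted p = 0.0166, adjusted p = 0.967). This call was kept in 3 of 6 fits with single libraries left out. When the reads of the second entry were taken from those of the gene, the other 7389 bases of Tead1 exon came to 4.46, 3.43 and 3.21 RPKM in Scx-/- and 6.80, 4.13 and 8.39 RPKM in Scx+/+ libraries. On these bases Scx-/- replicate 1 was above Scx+/+ replicate 2, so the genotypes overlapped. The log2 ratio of the group means was -0.80 there and -0.76 over the second entry.

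Tead2 (ENSMUSG00000030796, chromosome 7, 52471123 to 52489005, plus strand), a TEAD factor best known from early embryonic tissue, was listed at 10.9, 10.3 and 6.62 RPKM in Scx-/- hearts and 9.99, 5.22 and 8.57 RPKM in Scx+/+ hearts. The genotypes overlapped, and as for Yap1 the lowest library of each was Scx-/- replicate 3 or Scx+/+ replicate 2. The log2 difference was 0.24 with a standard error of 0.29 and a 95% interval from -0.42 to 0.91.

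Tead3 (ENSMUSG00000002249, chromosome 17, 28468616 to 28487750, minus strand) and Tead4 (ENSMUSG00000030353, chromosome 6, 128174306 to 128250841, minus strand) encode the remaining TEAD paralogs. Tead3 was listed at 0.717, 0.642 and 0.442 RPKM in Scx-/- hearts and 0.712, 0.0949 and 0.832 RPKM in Scx+/+ hearts. The value in Scx+/+ replicate 2 is the common value that the authors put in place of low ones, so it is not a measured level, and the log2 difference of 0.38 (standard error 0.65) includes it. Tead4 was listed at 0.319, 0.519 and 0.191 RPKM in Scx-/- hearts and 0.422, 0.815 and 0.511 RPKM in Scx+/+ hearts. These values rested on 41 to 136 reads per library, the genotypes overlapped, and the log2 difference was -0.65 with a 95% interval from -1.81 to 0.51. The 95% interval of Tead3, from -1.09 to 1.85, also included 0.

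The balance between the TEAD factors was computed after the levels had been seen and is given without a test. Tead1 made up 30.4%, 28.7% and 35.2% of the summed RPKM of the 4 TEAD genes in Scx-/- libraries and 42.2%, 46.6% and 50.6% in Scx+/+ libraries, or 31.4% ± 3.35 and 46.5% ± 4.21 (SD, n = 3 each). Tead2 made up 63.5%, 64.1% and 59.2% in Scx-/- and 51.9%, 45.5% and 42.7% in Scx+/+ libraries. Neither share overlapped between genotypes. Tead1 and Tead2 made up most of the sum in every library, so both shares and their ratio describe the same contrast and are not separate results. How often the ratio of other gene pairs fails to overlap was not counted. The ratio of Tead1 to Tead2 was 0.479, 0.447 and 0.594 in Scx-/- libraries and 0.813, 1.02 and 1.19 in Scx+/+ libraries. The sum of the 4 genes overlapped, at 17.2, 16.05 and 11.2 RPKM in Scx-/- and 19.2, 11.5 and 20.1 RPKM in Scx+/+ libraries. A ratio within a library shows unequal levels and not which of the genes changed.

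**Figure D2:**
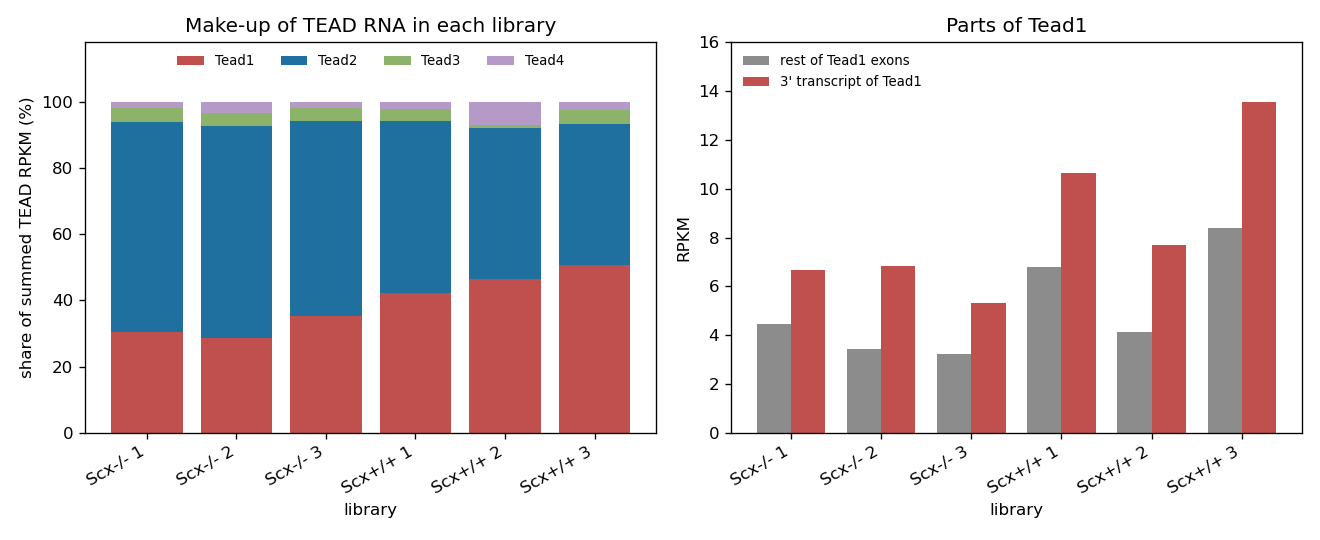
Share of the summed TEAD RPKM (percent) taken by Tead1, Tead2, Tead3 and Tead4 in each of the 6 libraries, as stacked bars (left), and RPKM of the second Tead1 entry and of the rest of the Tead1 exons in the same libraries (right). Tead1 takes 28.7% to 35.2% in the Scx-/- libraries and 42.2% to 50.6% in the Scx+/+ libraries, and on the right the rest of the exons in Scx-/- replicate 1 (4.46 RPKM) stands above that in Scx+/+ replicate 2 (4.13 RPKM).

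Lats1 (ENSMUSG00000040021, chromosome 10, 7401007 to 7436256, plus strand) and Lats2 (ENSMUSG00000021959, chromosome 14, 58260914 to 58377225, minus strand) encode the kinases that act directly on YAP and TAZ. Lats1 was listed at 4.30, 4.28 and 3.11 RPKM in Scx-/- hearts and 4.65, 2.35 and 4.26 RPKM in Scx+/+ hearts. Its log2 difference was 0.09 with a standard error of 0.31 and a 95% interval from -0.60 to 0.79, and turned to -0.01 with library medians set to 0. Lats2 was listed at 5.69, 4.57 and 4.43 RPKM in Scx-/- hearts and 5.86, 3.97 and 4.95 RPKM in Scx+/+ hearts. The group means of Lats2 were 4.90 ± 0.695 and 4.93 ± 0.945 RPKM (SD, n = 3 each), with a log2 difference of -0.00 and a 95% interval from -0.53 to 0.53. The ratio of Lats1 to Lats2 lay between 0.591 and 0.937 in the 6 libraries, below 1 in each.

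Sav1 (ENSMUSG00000021067, chromosome 12, 71065999 to 71087989, minus strand), the scaffold that brings the MST kinases to LATS, was listed at 9.87, 9.27 and 7.82 RPKM in Scx-/- hearts and 10.6, 7.18 and 9.01 RPKM in Scx+/+ hearts. Its log2 difference was 0.02 with a 95% interval from -0.45 to 0.49, and turned to -0.09 with library medians set to 0. Vgll4 (ENSMUSG00000030315, chromosome 6, 114810646 to 114920012, minus strand), whose protein competes with YAP for TEAD factors, was listed at 4.95, 4.51 and 2.97 RPKM in Scx-/- hearts and 4.94, 3.52 and 4.68 RPKM in Scx+/+ hearts. Its log2 difference was -0.10 with a 95% interval from -0.70 to 0.51. Both genes overlapped between genotypes.

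Yap1, Lats2 and Tead2 share exon bases with a neighbouring gene, and whether reads were counted by strand is not given in the sources used here. The overlap was 116 bases (1.25% of the exons) of Yap1 with RP23-349N15.1 on the opposite strand, 332 bases (4.55%) of Lats2 with Xpo4 on the same strand, and 4 bases of Tead2 with Cd37 on the opposite strand.

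**Figure D3:**
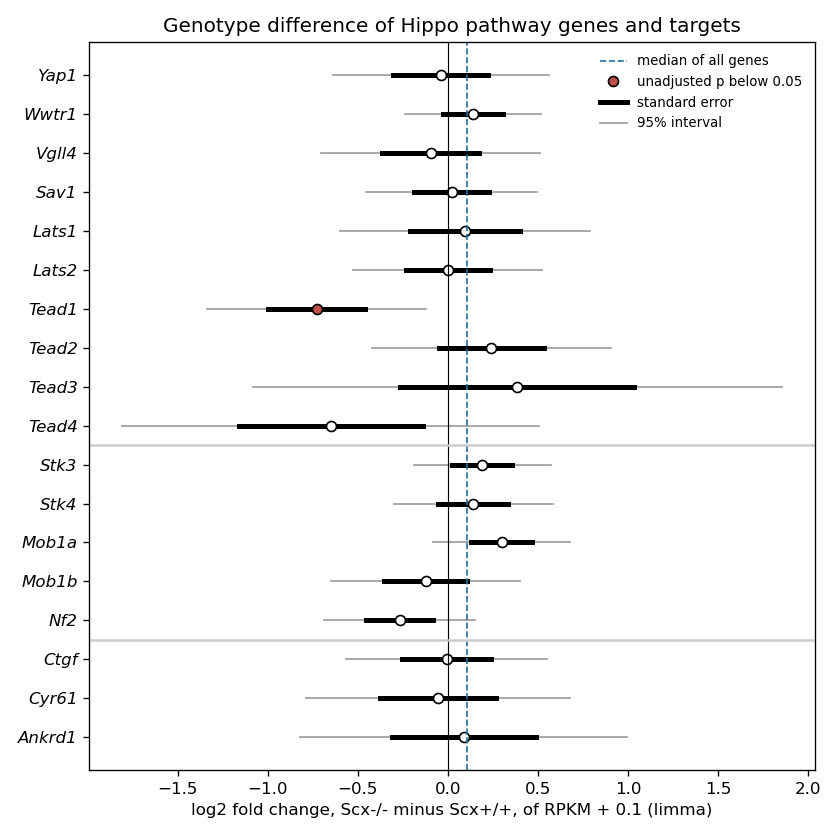
log2 difference (Scx-/- minus Scx+/+, of RPKM + 0.1, limma) of the 10 Hippo pathway genes, of Stk3, Stk4, Mob1a, Mob1b and Nf2, and of the targets Ctgf, Cyr61 and Ankrd1, with thick bars for the standard error, thin bars for the 95% interval and a dashed line at the median of all genes. Tead1, at -0.73, is the only filled point, that is the only one of the 18 genes with an unadjusted p below 0.05.

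In 7 of the 10 genes (Yap1, Tead2, Tead3, Lats1, Lats2, Sav1 and Vgll4) the lowest 2 libraries were Scx-/- replicate 3 and Scx+/+ replicate 2. The same pair was lowest in 18.5% of all genes and in 19.5% of the 13827 genes whose mean reached 1 RPKM. It was also lowest in 37.5% of 24 other Hippo pathway genes and in 42.1% of 19 targets of YAP and TAZ. Among the marker lists the share ran from 0% (cardiomyocyte, erythroid and melanocyte) to 50% (macrophage), with 42.9% for valve mesenchyme. The count of 7 of the 10 genes was made after the values were seen and was not tested. The exceptions were Wwtr1, which was lowest in Scx+/+ replicates 2 and 3, Tead1, which was lowest in Scx-/- replicates 2 and 3, and Tead4, which was lowest in Scx-/- replicates 1 and 3. The same 2 libraries had the highest summed cardiomyocyte markers, though not every marker followed the sum. The part of muscle RNA in the pattern was not tested.

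**Figure D4:**
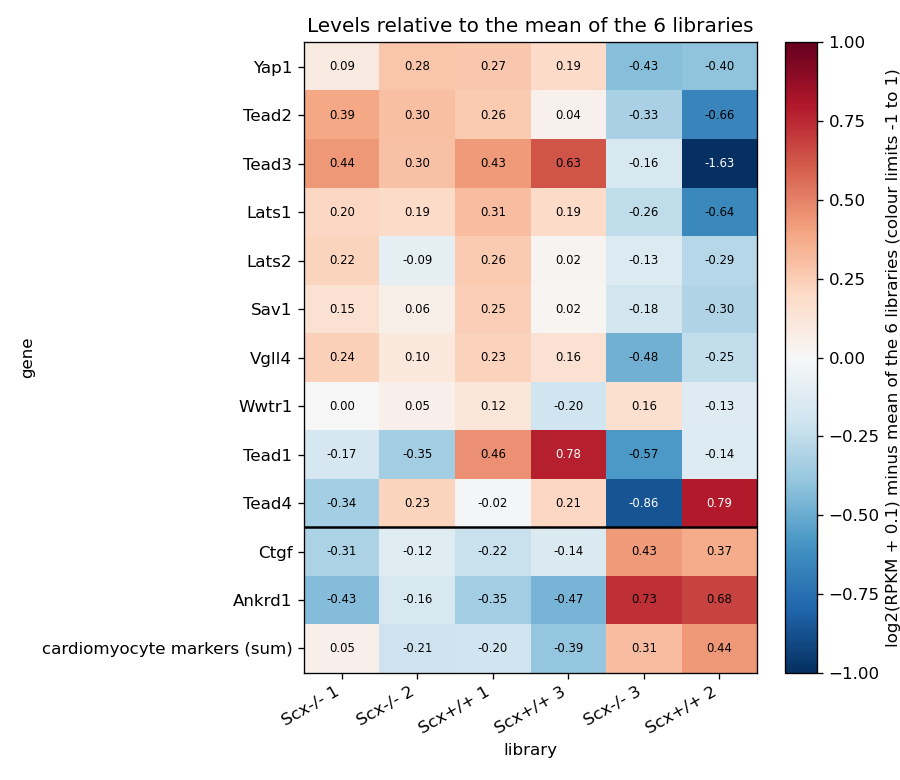
log2 level of each of the 10 genes, of Ctgf and Ankrd1 and of the summed cardiomyocyte markers in each library. Each row is relative to its own mean over the 6 libraries, with Scx-/- replicate 3 and Scx+/+ replicate 2 drawn side by side. Yap1, Tead2, Tead3, Lats1, Lats2, Sav1 and Vgll4 are lowest in this pair, while Tead1 is high in Scx+/+ replicates 1 and 3.

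Genes elsewhere in the table with the profile most like that of Yap1 across the 6 libraries, by the root mean square difference of their centred log2 levels, were Col6a6 (0.0525), Arhgef11 (0.0534) and Flna (0.0552), where the profile of Yap1 itself varied by 0.30. For Wwtr1, which varied by 0.129 on the same scale, the nearest were Tcf20 (0.0337), Snx14 (0.0395) and Vezt (0.0415). These are 6 points per gene that share their libraries.

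In limma none of the other Hippo pathway genes was called, against 3.89% of all genes, and in so short a list 0 lies near that share. Of 26 such genes, 24 were in the table and 22 of these reached a mean of 1 RPKM, and their log2 differences had a median of -0.00 and ran from -0.49 to 0.62, with 12 above and 12 below 0. The largest among genes with a mean of 1 RPKM or more were those of Dchs1, a protocadherin upstream of the pathway (-0.49, standard error 0.37), Rassf1, a partner of the MST kinases (0.42, standard error 0.26), and Stk38l, a kinase related to LATS (0.36, standard error 0.22). The kinase gene Stk3 (MST2) was listed at 28.0, 26.4 and 23.3 RPKM in Scx-/- hearts and 25.0, 20.0 and 23.2 RPKM in Scx+/+ hearts, with a log2 difference of 0.19 and a standard error of 0.17. Stk4 (MST1) had a log2 difference of 0.14, and Mob1b, a paralog of Mob1a, one of -0.12. Genotypes did not overlap in 3 of the 24 genes, against 9.5% of the table, and these 3 were picked out after their values were seen. Mob1a, a coactivator of the LATS kinases, was listed at 16.6, 18.8 and 19.1 RPKM in Scx-/- and 16.3, 14.9 and 13.2 RPKM in Scx+/+ hearts (log2 difference 0.30, standard error 0.17, limma adjusted p = 0.967). Nf2, which encodes Merlin, an upstream activator of the pathway, was listed at 6.71, 5.77 and 6.24 RPKM in Scx-/- and 7.55, 8.08 and 6.98 RPKM in Scx+/+ hearts (log2 difference -0.27, standard error 0.19, limma adjusted p = 0.967). Frmd6, a gene of the same upstream group, was listed at 6.59, 6.32 and 6.05 RPKM in Scx-/- and 6.71, 7.37 and 6.98 RPKM in Scx+/+ hearts (log2 difference -0.15). None of the 3 was called by limma. The per-gene test without moderation called all 3 on RPKM and Nf2 and Frmd6 on log2, and limma called Nf2 with library medians set to 0.

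In limma none of the targets of YAP and TAZ was called, against 3.89% of all genes. In so short a list a count of 0 lies near that share. Of 21 target genes, 19 were in the table, and their log2 differences had a median of -0.05 and ran from -0.35 to 0.41, with 8 above and 11 below 0. The largest among genes with a mean of 1 RPKM or more were those of Ptpn14, a phosphatase gene that is also on the pathway list (-0.35, standard error 0.28), Asap1 (-0.31, standard error 0.31) and Axl, a receptor tyrosine kinase gene (-0.29, standard error 0.23). Ctgf, which encodes a secreted matrix protein, was listed at 13.4, 15.3 and 22.6 RPKM in Scx-/- hearts and 14.4, 21.7 and 15.1 RPKM in Scx+/+ hearts (log2 difference -0.01, standard error 0.25). Ankrd1, which is also a cardiac muscle gene, was listed at 556, 670 and 1242 RPKM in Scx-/- and 590, 1201 and 543 RPKM in Scx+/+ hearts (log2 difference 0.09, standard error 0.40, turning to -0.02 with library medians set to 0). Both were thus highest in Scx-/- replicate 3 and Scx+/+ replicate 2, the libraries in which Yap1 was lowest. Cyr61, another secreted matrix protein, followed another order, at 4.44, 8.13 and 5.16 RPKM in Scx-/- and 6.57, 3.94 and 8.05 RPKM in Scx+/+ hearts (log2 difference -0.05, standard error 0.32). None of the 19 genes had genotypes that did not overlap, against 9.5% of the table.

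The promoters of the 10 genes were searched for the core of the TEAD motif, since TEAD binding is the route by which YAP and TAZ reach DNA. Promoters were taken from RefSeq on GRCm38.p6 as 300 bases, 250 before and 50 after the annotated start, and searched for CATTCC and its reverse complement GGAATG. Of the 10 genes, 8 had a promoter entry, Tead1 and Tead4 being those without one. The motif was found in 6 of the 8 (Yap1, Wwtr1, Tead3, Lats2, Sav1 and Vgll4) and not in those of Tead2 and Lats1. Of all 32851 promoters of the same length 14.7% held it, and of all 27025 genes 16.6% held it in at least 1 entry. The matches that lie wholly before the start are shown for 5 of the members and for Cyr61 and Ankrd1 as known targets, with the motif in capitals and 20 bases on each side, all on the minus strand of GRCm38.p6 and read 5′ to 3′. The second Tead3 window holds a further match in lower case, and the match of Lats2 and another of Tead3 reach past the start and are not shown.
Yap1, chr9:8004712-8004757: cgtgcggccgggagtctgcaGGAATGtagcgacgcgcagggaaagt
Wwtr1, chr3:57576021-57576066: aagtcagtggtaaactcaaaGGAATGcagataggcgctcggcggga
Tead3, first match, chr17:28350962-28351007: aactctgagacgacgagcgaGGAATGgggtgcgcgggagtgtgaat
Tead3, second match, chr17:28350698-28350743: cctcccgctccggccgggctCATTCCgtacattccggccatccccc
Sav1, chr12:69987083-69987128: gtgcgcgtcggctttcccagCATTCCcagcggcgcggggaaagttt
Vgll4, chr6:114969260-114969305: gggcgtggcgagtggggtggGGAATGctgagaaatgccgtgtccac
Cyr61, chr3:145650063-145650108: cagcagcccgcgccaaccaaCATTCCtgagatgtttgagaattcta
Ankrd1, first match, chr19:36120029-36120074: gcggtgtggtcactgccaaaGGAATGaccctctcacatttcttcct
Ankrd1, second match, chr19:36119942-36119987: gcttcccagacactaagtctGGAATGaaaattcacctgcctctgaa

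Counted from the start site, the motif began at position -141 in Yap1, -136 in Wwtr1, -106 in Sav1, -82 in Vgll4 and -103 in Cyr61. Of the genes shown, none was called in Scx-/- hearts. A match of letters describes the sequence and is not evidence of binding in this tissue.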

How the data were processed

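Total RNA of 6 atrioventricular canal regions was sequenced on an Illumina instrument. Per the labels and methods, the authors aligned reads to mm9 with TopHat 1.4.1 (from the submitters' processing notes), counted them in Ensembl exons with easyRNASeq and deposited RPKM values for 18810 genes, after replacing low values with a common fill-in (0.0949 RPKM, 8395 values). Gene symbols, exons and coordinates came from GENCODE on mm9, which held 18695 of the identifiers. The product of RPKM, exon length and a depth solved for each library came out as whole reads (tolerance 0.1 read) in 98.5% to 98.6% of values under 1000 reads. No count test was run.

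Genotypes were compared on the scale log2(RPKM + 0.1) with limma 3.58.1 (R 4.3.3), with an intensity trend, no covariate, all 18810 genes in the fit and Benjamini-Hochberg adjustment. The fold changes understate those of genes near the pseudocount. Calls were made at unadjusted p below 0.05, following the study's use of unadjusted values. The study itself used ANOVA and not limma, so the calls here are not those of its test. The libraries of a genotype are separate hearts, and p-values measure the spread between these libraries only.

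The 10 genes, the lists and the tests were chosen with earlier results of these data known. The text names the 10 genes, Scx, core Hippo genes (Stk3, Stk4, Mob1a, Mob1b, Nf2), the targets Ctgf, Cyr61 and Ankrd1, any called list gene, in a list with fewer than 3 calls the 3 largest log2 differences at a mean of 1 RPKM or more, and the 3 nearest profiles of Yap1 and Wwtr1. The lists were other Hippo pathway genes, YAP/TAZ target genes and markers of valve mesenchyme, cardiomyocytes, endothelium, epicardium, smooth muscle, erythroid cells, macrophages and melanocytes. Amotl2 and Ptpn14 are in both pathway lists, and Lats2, also a target, was counted among the 10 genes only.

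Alternatives were pseudocounts of 0.01 and 1, a mean of at least 1 RPKM (13827 genes), no trend, per-gene tests without moderation on RPKM and its log2, quantile normalization, library medians set to 0, removal of a length and GC trend, a block for replicate number and omission of single libraries. Leaving out 2 libraries together was added after seeing the data. The limma fit was tested on simulated data with independent noise, which held no effects shared by the genes of a library. Python 3.11.15 with pandas 2.3.3 and matplotlib 3.10.9 did the rest.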

Additional observations from a re-analysis of the deposited data

How the results depend on the processing

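The call of Tead1, and so the count of 1 call among the 10 genes, was kept under both other pseudocounts, the filter, no trend, quantile normalization, library medians set to 0 and the length and GC trend. The count was 0 in the per-gene tests without moderation on RPKM and on log2, and 0 to 1 with each library left out. Over all settings the log2 difference of Tead1 ran from -0.98 to -0.52. The other Hippo genes, with 0 calls, had 1 with library medians set to 0 (Nf2), 3 in the per-gene test on RPKM (Mob1a, Nf2 and Frmd6) and 2 in that on log2 (Nf2 and Frmd6). The targets had 0 to 1 with each library left out, the 1 being Asap1 without Scx+/+ replicate 2 and Axl without Scx-/- replicate 2. Over all genes the 731 calls became 539 to 1549 with each library left out and 1587 without both Scx-/- replicate 3 and Scx+/+ replicate 2, a setting chosen after seeing the data. Quantile normalization gave 353 higher and 350 lower calls and the length and GC trend 293 higher and 355 lower. The per-gene test on log2 called 865 genes, 1 of them after adjustment.

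Several uncalled differences changed sign, and the cause was not tested. Removing the length and GC trend gave log2 differences of -0.11 for Ankrd1, 0.0091 for Lats2 and -0.16 for Sav1, library medians set to 0 gave -0.021 for Ankrd1, -0.015 for Lats1 and -0.089 for Sav1, quantile normalization gave -0.10 for Sav1, and the per-gene test on RPKM gave 0.0045 for Ctgf. Without both Scx-/- replicate 3 and Scx+/+ replicate 2 they were -0.05 for Lats1, -0.03 for Sav1 and -0.16 for Tead3. With each library left out they ran from -0.25 to 0.45 for Ankrd1, -0.22 to 0.18 for Ctgf, -0.34 to 0.16 for Cyr61, -0.20 to 0.27 for Lats1, -0.14 to 0.13 for Lats2, -0.12 to 0.15 for Sav1, -0.030 to 0.46 for Tead2, -0.34 to 0.79 for Tead3, -0.24 to 0.12 for Vgll4 and -0.25 to 0.17 for Yap1.

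The labels do not say whether a shared replicate number marks a litter. Deviations from the genotype means correlated at 0.09, -0.22 and -0.19 between libraries of the same number, and not every library correlated best with its own number. The deviations of the 3 libraries of a genotype cancel out, so these correlations cannot decide whether libraries were paired. With the replicate block there were 573 calls over all genes, and Tead1 kept its log2 difference of -0.73 and its call, the single call among the 10 genes. Tead4 rested on 41 to 136 reads per library. Among the called marker genes, the block ended the calls of Aldh1a2, Cd68, Dct and Snai2, library medians set to 0 those of Aldh1a2, Tcf21 and Dct, and the length and GC trend those of Aldh1a2, Tcf21, Cd68, Dct and Ryr2. Quantile normalization ended those of Aldh1a2 and Tcf21, the filter that of Snai2, and no trend that of Ryr2. The per-gene test on RPKM ended those of Cd68, Dct, Mlana and Snai2, and that on log2 those of Cd68, Dct and Snai2.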
